A study of Homo sapiens with 5 samples.

Results

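The D-type cyclins and the CDK4/6-RB axis were followed in 10 genes: the cyclins CCND1, CCND2 and CCND3, the kinases CDK4 and CDK6, the retinoblastoma gene RB1, the inhibitors CDKN2A, CDKN2C and CDKN1B, and the ubiquitin ligase subunit SKP2. They were chosen by symbol, each matched exactly 1 of the 43714 gene rows of the count tables, and no member has a numbered copy among those rows. The question was whether a lower CCND1 level after depletion of H3F3A is met by changes of the other D cyclins, of the kinases or of their inhibitors. The data are poly-A RNA-seq read counts from Rh41, an established human cell line labelled as fusion-positive alveolar rhabdomyosarcoma, a childhood cancer whose cells express muscle genes. The H3F3A siRNA group (n = 3 libraries, replicates 1, 2 and 3) received an siRNA specific for H3F3A, a gene for the histone variant H3.3. The scrambled siRNA group (n = 2 libraries, replicates 1 and 3) received a scrambled siRNA. Both groups were transfected with Lipofectamine RNAiMAX and collected after 48 hours.

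In early G1, D cyclins bind CDK4 or CDK6, and the active kinase phosphorylates RB1. Phosphorylated RB1 releases E2F transcription factors, which switch on genes of S phase. INK4 proteins such as those of CDKN2A and CDKN2C bind the kinases and block this step, CDKN1B binds cyclin-CDK complexes, and SKP2 marks the CDKN1B protein for degradation. CCND1 transcription answers to growth factor signals, among them through AP-1, and gain of CDK4 recurs in fusion-positive rhabdomyosarcoma.

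Assigned counts ran from 28493573 to 30705963 per library. The targeted gene, whose row is named H3-3A, had 280, 304 and 264 counts in the H3F3A siRNA libraries, against 8571 and 7983 in scrambled libraries. CPM is the count scaled to library size, with library sizes adjusted by the TMM method. Of 7 rhabdomyosarcoma markers, whose summed level was 4076 to 4137 CPM in H3F3A siRNA libraries and 4672 and 5800.0 CPM in scrambled libraries, FGFR4 was called lower (log2 fold change -0.50, edgeR adjusted p = 0.00257) and TFAP2B higher (0.49, edgeR adjusted p = 0.00133). MYOD1 (-0.29), DES (-0.31) and CDH15 (-0.33) were not called, with edgeR adjusted p-values of 0.0654, 0.0501 and 0.0529, nor was MYOG (-0.03). Scrambled replicates 1 and 3 were themselves apart, at 2184 and 1783 CPM for FGFR4, 1488 and 1193 for MYOD1, 928 and 742 for DES, and 875 and 661 for CDH15. For TFAP2B they were close, at 57.1 and 56.4 CPM. The summed levels in H3F3A siRNA libraries were at most 4.12 CPM for 4 immune, 5.93 CPM for 4 epithelial and 2.52 CPM for 4 endothelial markers, against at most 3.91, 6.65 and 2.93 CPM in scrambled libraries. PTPRC, EPCAM, CDH1 and KDR were at 0 in the scrambled libraries, and CD68, KRT8, KRT18 and VWF at means of 1.12 to 5.08 CPM there. Of 4 fibroblast markers, LUM, DCN and THY1 averaged at most 0.345 CPM in either group, and PDGFRB was called lower, with 34.7 CPM after H3F3A siRNA and 44.4 CPM in scrambled libraries (log2 fold change -0.36, edgeR adjusted p = 0.0162). The part of these markers in the members' results was not tested. Over all genes, 427 were lower (2.69%) and 80 higher (0.504%) after H3F3A siRNA, 323 and 116 with upper-quartile scaling, and 255 and 138 with library size only. The libraries also differed in how log2 CPM, relative to each gene's mean over libraries, ran with GC content. The slope for each 10 percentage points of GC was -0.0599 to -0.0399 in the H3F3A siRNA libraries, against 0.147 in scrambled replicate 1, which stood apart, and -0.00665 in scrambled replicate 3. Values with each library's trend removed are therefore given beside the members' changes.

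CCND1 fell, and no other member was called. Of the 10 members, all of which were tested, 1 passed the edgeR quasi-likelihood test at an adjusted p under 0.05 (called), against 3.20% of the 15859 genes tested; 3 members had an unadjusted p under 0.05, against 16.8% of all genes. With the GC trend removed CCND1 was again the called member, against 1.80% of all genes (1.28% lower and 0.523% higher). The median log2 fold change of the members was -0.05, against 0.01 over all genes, and their median absolute log2 fold change was 0.06, against 0.13. The groups did not overlap in CPM for 4 members, CCND1, CCND3, RB1 and CDKN2A, and for 33.1% of all genes tested. In bulk libraries, fewer cells that express a gene and less RNA per cell cannot be told apart.

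**Figure D1:**
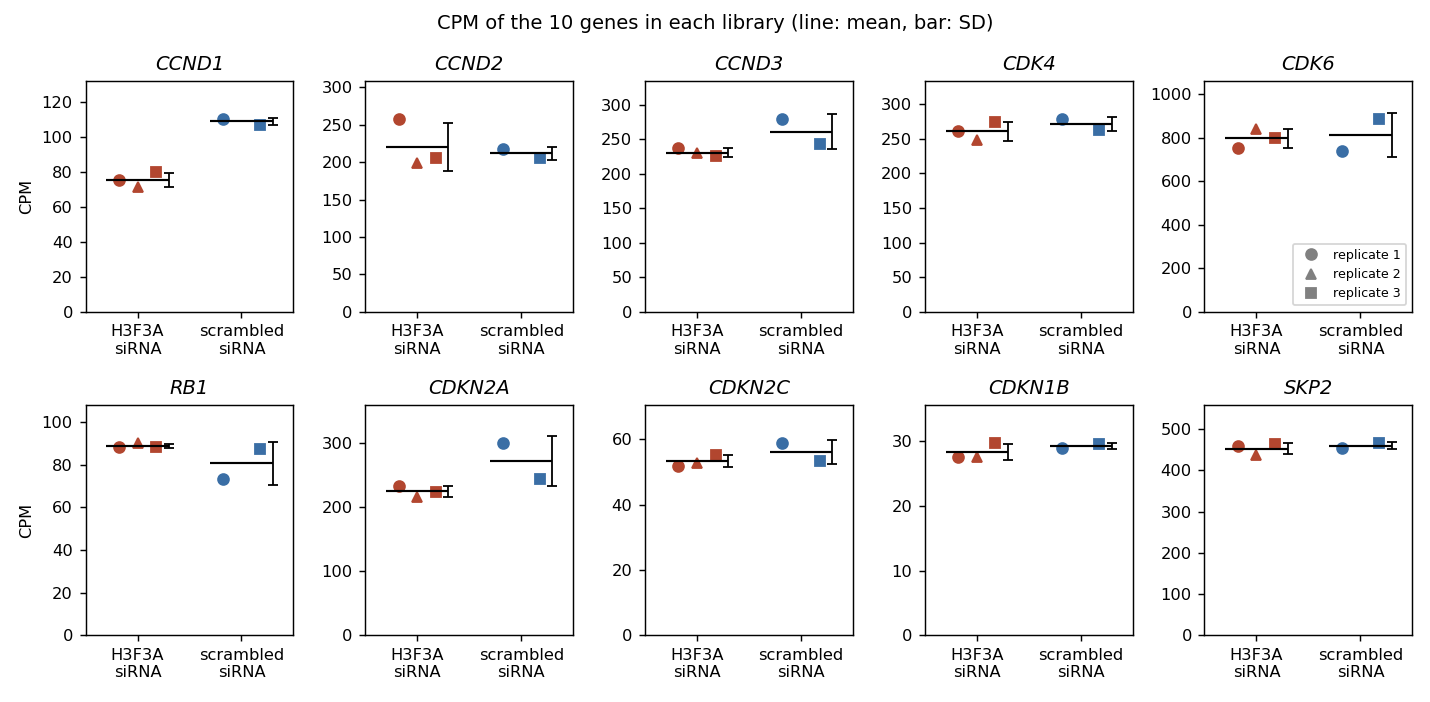
CPM of each member in each library, H3F3A siRNA on the left and scrambled siRNA on the right of each panel, with the marker showing the replicate, the line the mean and the bar the SD. CCND1 lay at 71.7 to 79.9 CPM in the H3F3A siRNA libraries, below both scrambled libraries. CCND3, RB1 and CDKN2A also did not overlap, and the other 6 members did.

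CCND1, the D cyclin most tied to mitogen signals, had 75.2, 71.7 and 79.9 CPM in H3F3A siRNA replicates 1, 2 and 3, against 110.1 and 107 CPM in scrambled replicates 1 and 3. All H3F3A siRNA libraries were lower than both scrambled libraries, and the gap between the groups was larger than the spread within either. The mean was 75.6 ± 4.06 CPM (SD, n = 3) after H3F3A siRNA and 109 ± 2.17 CPM (SD, n = 2) in scrambled libraries, 1.44-fold lower (log2 fold change -0.52, SE 0.08, 95% interval -0.68 to -0.36, edgeR adjusted p = 0.000839). CCND1 ranked 11 by p among all genes tested. Its transcript has a GC content of 50.3%, at which the GC trend between the groups was 0.00, and the log2 fold change was -0.52 with the trend removed (edgeR adjusted p = 0.000106). Leaving out H3F3A siRNA replicate 1 ended the call (log2 fold change -0.51, edgeR adjusted p = 0.0561). With that replicate left out and the GC trend removed, an alternative chosen after seeing the data, CCND1 was called (edgeR adjusted p = 2.14e-05).

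CCND2, the D cyclin of many haematopoietic and gonadal cells, had 257, 199 and 205 CPM after H3F3A siRNA, against 218 and 206 CPM in scrambled libraries. H3F3A siRNA replicate 1 was the highest of all libraries and the other replicates lay below both scrambled libraries, so the groups overlapped. The log2 fold change was 0.05 (95% interval -0.14 to 0.25, edgeR adjusted p = 0.825), an interval that covers changes between -9.22% and 18.8%. It was -0.07 without H3F3A siRNA replicate 1, and 0.01 with the GC trend removed (95% interval -0.24 to 0.26).

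CCND3, the D cyclin expressed most broadly, had 238, 231 and 226 CPM after H3F3A siRNA, against 279 and 243 CPM in scrambled libraries. The H3F3A siRNA libraries lay close below scrambled replicate 3 and further below scrambled replicate 1. CCND3 was not called (log2 fold change -0.17, 95% interval -0.33 to -0.01, edgeR adjusted p = 0.256), and with the GC trend removed its log2 fold change was -0.09 (95% interval -0.20 to 0.02). It was -0.07 without scrambled replicate 1 (edgeR adjusted p = 0.828), and -0.27 without scrambled replicate 3, where it was called (edgeR adjusted p = 0.0113).

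The counts of CCND1 per CCND2 count, which do not depend on library scaling, were 0.292, 0.361 and 0.389 after H3F3A siRNA, against 0.504 and 0.519 in scrambled libraries. The counts of CCND1 per CCND3 count were 0.317, 0.311 and 0.354 after H3F3A siRNA, against 0.395 and 0.441 in scrambled libraries. Both ratios were lower in every H3F3A siRNA library than in either scrambled library. The differences of the mean log2 ratio, H3F3A siRNA minus scrambled, were -0.57 for CCND1 to CCND2 and -0.35 for CCND1 to CCND3. The ratios are not free of the GC trend between the groups, which was 0.00 at CCND1, 0.05 at CCND2 and -0.08 at CCND3. In an exact two-sided permutation test, with the smaller tail doubled, each difference had p = 0.200, also when adjusted over both ratios. That is the smallest p that this form gives with 10 regroupings. Counted on the absolute difference, each had an exact p = 0.100, which is the smallest p of that form, so neither form can reach 0.05 here.

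Levels of different genes were compared as CPM per kilobase, with the length of the longest coding transcript of GENCODE 29. On this scale the D cyclins together stood at 156, 144 and 144 CPM per kilobase after H3F3A siRNA, against 176 and 158 in scrambled libraries. The mean sum was 148 ± 7.12 (SD, n = 3) after H3F3A siRNA and 167 ± 12.5 (SD, n = 2) in scrambled libraries, a ratio of 0.888, and it was 0.938 without scrambled replicate 1. CCND1 made up 11.2%, 11.6% and 12.8% of the sum after H3F3A siRNA, against 14.5% and 15.7% in scrambled libraries. CCND3 made up most of it in both groups, with 65.3 ± 1.82% (SD, n = 3) after H3F3A siRNA and 65.2 ± 1.49% (SD, n = 2) in scrambled libraries, and CCND2 the rest. The shares depend on the length used: over all annotated exon bases CCND1 made up 16.8% to 19.7% after H3F3A siRNA, against 22.5% and 23.9% in scrambled libraries, and CCND3 44.3% to 48.3%, against 45.1% and 47.4%.

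**Figure D2:**
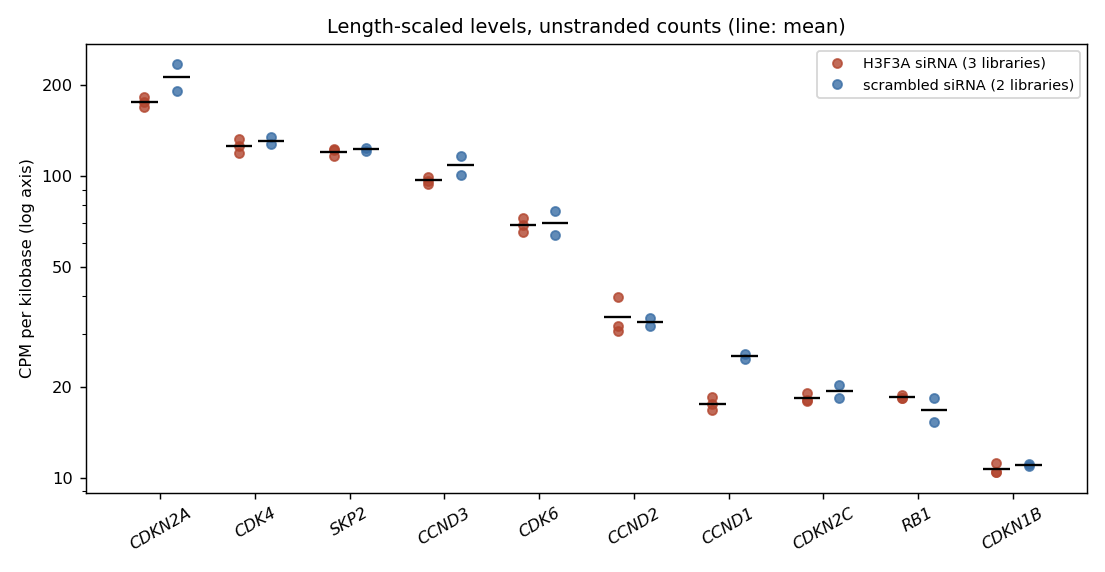
CPM per kilobase of each member on a log axis, from unstranded counts, in H3F3A siRNA libraries (left of each pair) and scrambled libraries (right). Members are ordered by the scrambled mean, with lines at the means. CCND1 is seventh in scrambled libraries and lies among RB1 and CDKN2C after H3F3A siRNA.

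In unstranded counts the order of length-scaled levels in scrambled libraries was CDKN2A, CDK4, SKP2, CCND3, CDK6, CCND2, CCND1, CDKN2C, RB1 and CDKN1B. CDK4 and CDKN1B stand higher with both strands summed, as given below. The highest, CDKN2A, averaged 176 ± 6.69 CPM per kilobase (SD, n = 3) after H3F3A siRNA and 213 ± 30.4 (SD, n = 2) in scrambled libraries, and the lowest, CDKN1B, averaged 10.6 ± 0.460 after H3F3A siRNA, close to its scrambled mean. CCND1 averaged 17.6 ± 0.944 CPM per kilobase after H3F3A siRNA, among RB1 at 18.6 ± 0.198 and CDKN2C at 18.4 ± 0.614, and 25.2 ± 0.504 in scrambled libraries, above RB1 at 16.8 ± 2.08 and CDKN2C at 19.3. After H3F3A siRNA the library values of CCND1, CDKN2C and RB1 overlapped, as did those of CDK4 (119 to 132) and SKP2 (116 to 123). In scrambled libraries no neighbours in the order overlapped, but CDK4 (127 and 134) lay just above SKP2 (121 and 124), and CDKN2C (18.4 and 20.2) just above RB1 (15.3 and 18.3). The order rests on the length used. With all annotated exon bases in place of the coding transcript, the scrambled mean of CDKN2A was 63.0, below SKP2 at 120.0. On that length CDK4 was at 85.4, also below SKP2, and CCND3 at 44.9, below CDK6 at 66.3.

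CDK4 and CDK6, the kinase partners of the D cyclins, were not called. CDK4 had 261, 248 and 274 CPM after H3F3A siRNA, against 278 and 263 CPM in scrambled libraries, and the groups overlapped (log2 fold change -0.05, 95% interval -0.21 to 0.10, edgeR adjusted p = 0.785). CDK6 had 754, 841 and 800.0 CPM after H3F3A siRNA, against 741 and 884 CPM in scrambled libraries. The scrambled libraries gave both the lowest and the highest CDK6 value (log2 fold change -0.03, 95% interval -0.20 to 0.15, edgeR adjusted p = 0.917). CDK4 was at -0.01 with the GC trend removed (95% interval -0.12 to 0.10). CDK6, with a GC content of 39.5%, had a log2 fold change of -0.11 with the GC trend removed (95% interval -0.24 to 0.01).

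The unstranded counts leave out reads that overlap genes on opposite strands, and this touches CDK4 most. The exons of CDK4 share 1369 bases, 43.2% of its exon bases, with TSPAN31, a tetraspanin gene on the opposite strand. The unstranded CDK4 counts were 47.5% to 50.2% of the sum of both stranded columns, which keeps such reads but also takes in those from TSPAN31. With that sum the log2 fold change of CDK4 was -0.03 (95% interval -0.19 to 0.12, edgeR adjusted p = 0.871) and its level was 239.7 CPM per kilobase after H3F3A siRNA and 245 in scrambled libraries, the highest of the members. TSPAN31 had a log2 fold change of 0.12 in unstranded counts (edgeR adjusted p = 0.513) and of -0.01 in the sum. Its unstranded counts were only 7.57% to 8.96% of its sum, which also takes in reads from CDK4. The summed value of TSPAN31 is therefore not separate from that of CDK4. CDKN1B also kept only 49.9% to 51.8% of its reads in the unstranded counts, and no other gene's exons overlap it in GENCODE 29. Its log2 fold change in the sum was -0.02. The level of CDKN1B in the sum was 19.6 CPM per kilobase after H3F3A siRNA and 19.9 in scrambled libraries. That was above RB1 at 18.5 and 16.5 and CDKN2C at 17.2 and 17.9. CCND1 stood at 16.4 and 23.3 in the sum, the lowest of the members after H3F3A siRNA. The other members kept at least 91.7%.

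RB1, the pocket protein at the centre of the axis, had 88.3, 90.0 and 88.4 CPM after H3F3A siRNA, against 73.4 and 87.5 CPM in scrambled libraries. The H3F3A siRNA libraries lay close together just above scrambled replicate 3, and scrambled replicate 1 was lower. With both strands summed the groups overlapped. RB1 was not called (log2 fold change 0.14, 95% interval -0.03 to 0.31, edgeR adjusted p = 0.394). With a GC content of 37.3%, the lowest of the members, its log2 fold change was 0.04 with the GC trend removed, 0.02 without scrambled replicate 1 and 0.28 without scrambled replicate 3, where it was called (edgeR adjusted p = 0.0119).

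CDKN2A, whose locus encodes the INK4 inhibitor p16 and the p53 regulator ARF in overlapping transcripts that gene counts do not separate, had 234, 217 and 224 CPM after H3F3A siRNA, against 300.4 and 245 CPM in scrambled libraries. The H3F3A siRNA libraries were all lower, and scrambled replicate 1 was far above the rest. CDKN2A was not called (log2 fold change -0.28, 95% interval -0.45 to -0.10, edgeR adjusted p = 0.0727), while DESeq2 called it (adjusted p = 0.0467) and so did edgeR without a filter on low counts (adjusted p = 0.0259). Its GC content of 61.4% was the highest of the members, the GC trend between the groups was -0.16 there, and with the trend removed its log2 fold change was -0.11 (95% interval -0.22 to 0.01, edgeR adjusted p = 0.446). It was -0.13 without scrambled replicate 1 (edgeR adjusted p = 0.649) and -0.42 without scrambled replicate 3 (edgeR adjusted p = 0.000303).

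The inhibitors CDKN2C and CDKN1B were not called. CDKN2C, an INK4 inhibitor of both kinases, had 51.9, 52.7 and 55.3 CPM after H3F3A siRNA, against 58.8 and 53.4 CPM in scrambled libraries, with overlap (log2 fold change -0.07, 95% interval -0.24 to 0.09, edgeR adjusted p = 0.690). Its log2 fold change was 0.04 with the GC trend removed. CDKN1B, the inhibitor p27, had 27.5, 27.6 and 29.7 CPM after H3F3A siRNA, against 28.9 and 29.5 CPM in scrambled libraries, also with overlap (log2 fold change -0.05, 95% interval -0.22 to 0.13, edgeR adjusted p = 0.831). CDKN1B was at -0.07 with the GC trend removed (95% interval -0.21 to 0.07).

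SKP2, the F-box protein that recognises CDKN1B, had 458, 437 and 464 CPM after H3F3A siRNA, against 455 and 466 CPM in scrambled libraries. The values of the groups overlapped almost fully (log2 fold change -0.02, 95% interval -0.18 to 0.13, edgeR adjusted p = 0.912). SKP2 was at -0.10 with the GC trend removed (95% interval -0.22 to 0.01, edgeR adjusted p = 0.444). For these uncalled members the intervals after TMM scaling bound the change rather than show that there was none. For SKP2 it lay between -11.6% and 9.45%, for CDK4 between -13.5% and 7.54%, for CDK6 between -12.9% and 10.9%, and for CDKN1B between -14.2% and 9.21%. With the GC trend removed the lower ends were at log2 fold changes of -0.22 for SKP2 and -0.24 for CDK6. These went past -0.18 and -0.20 after TMM scaling, while the lower ends of CDK4 and CDKN1B did not go lower.

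**Figure D3:**
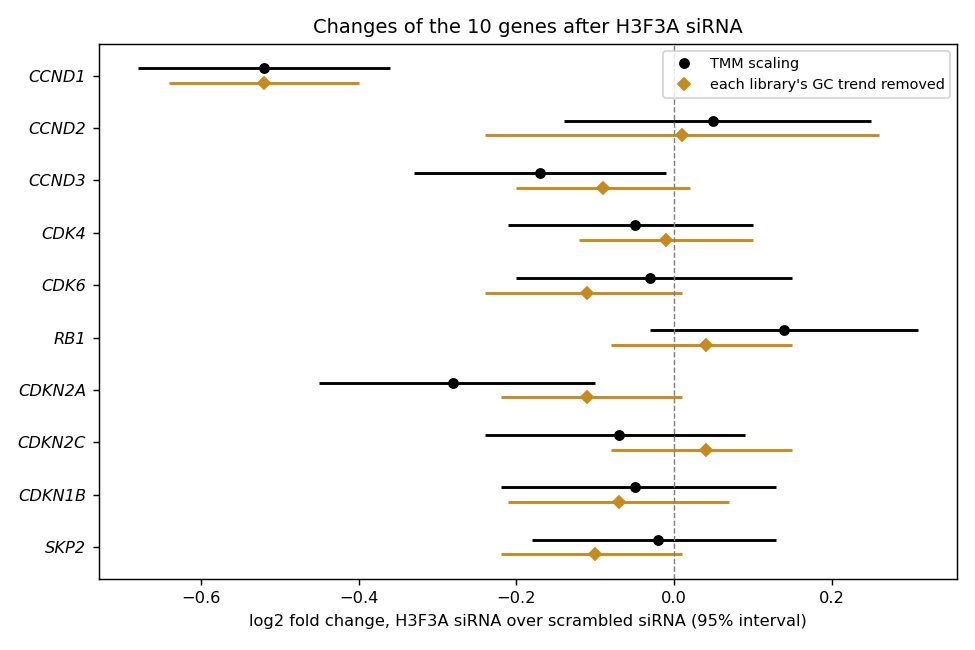
Log2 fold change of each member, H3F3A siRNA over scrambled siRNA, with its 95% interval, after TMM scaling (black) and with each library's GC trend removed (gold). CCND1 stays at -0.52 in both, while CDKN2A moves from -0.28 to -0.11 and RB1 from 0.14 to 0.04.

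**Figure D4:**
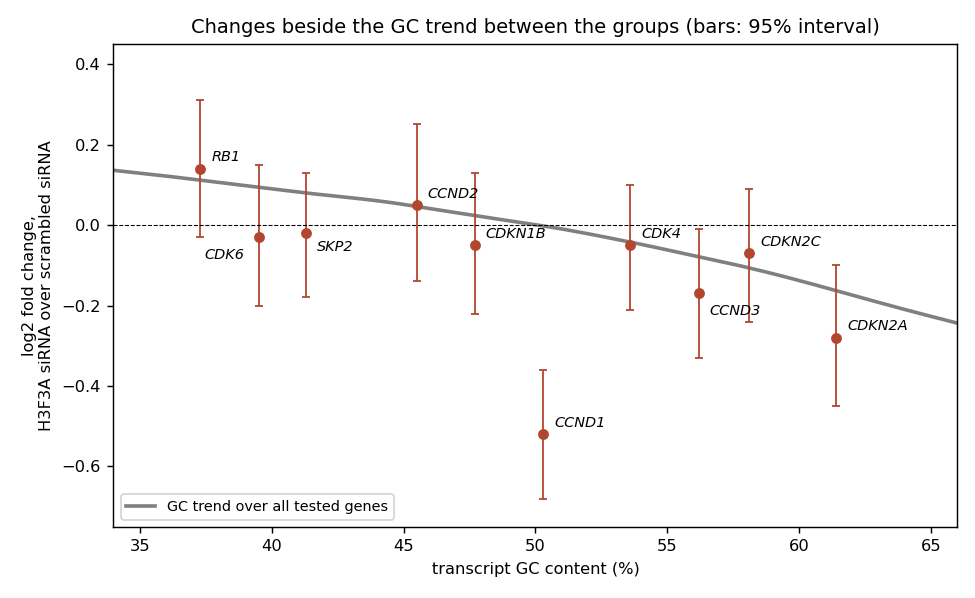
Log2 fold change of each member against the GC content of its transcript, with 95% intervals, and in grey the smoothed difference between the groups over all tested genes with a GC value. CDKN2A, CCND3, RB1, CCND2, CDK4 and CDKN2C lie on the side of 0 where the trend lies, CDK6, SKP2 and CDKN1B lie on the other side, and CCND1 lies at -0.52 where the trend is 0.00.

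Among 9716 genes that averaged 8 CPM or more, IER5L, an early response gene, and POLM, a DNA polymerase of end joining, were among the 3 whose log2 CPM across the 5 libraries, each centred on its own mean, ran closest to CCND1. IER5L had 9.45, 9.72 and 9.77 CPM after H3F3A siRNA, against 14.1 and 13.8 CPM in scrambled libraries, a root mean square difference from CCND1 of 0.0485 log2. POLM had 18.4, 16.7 and 18.6 CPM after H3F3A siRNA, against 26.5 and 23.6 CPM in scrambled libraries, a difference of 0.0519 log2. That both were lower in every H3F3A siRNA library than in either scrambled library follows from their choice by likeness to CCND1. With 5 libraries this likeness is a description of these samples.

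The other genes of the pathway were read in 9 lists, beside 3.20% of all genes tested that were called. In lists this short, 0 or 1 called genes say little about the list. Among other CDK inhibitors, 3 of 4 genes were tested and none was called (median log2 fold change -0.14, against 0.01 over all genes). CDKN1A, the inhibitor p21, averaged 65.7 ± 3.80 CPM (SD, n = 3) after H3F3A siRNA and 66.3 ± 1.10 CPM (SD, n = 2) in scrambled libraries. CDKN2D stood at 7.34 and 8.09 CPM (edgeR adjusted p = 0.587) and CDKN2B, beside CDKN2A on the chromosome, at 1.18 and 1.39 CPM (edgeR adjusted p = 0.685). MTAP, another neighbour of CDKN2A, stood at 55.5 ± 1.73 CPM after H3F3A siRNA and 47.9 ± 0.642 CPM in scrambled libraries and was not called (log2 fold change 0.21, edgeR adjusted p = 0.143), and CDKN2B-AS1, an antisense RNA of that locus, was at 1.41 and 1.02 CPM (log2 fold change 0.47, edgeR adjusted p = 0.358). None of the 6 tested genes that neighbour or overlap members was called.

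No pocket protein, E2F or cyclin E gene was called. Of 7 other pocket proteins and DREAM subunits, which repress cell cycle genes with the E2Fs, all 7 had log2 fold changes above 0, between 0.01 and 0.26 (median 0.07). Over all genes tested the median was 0.01, and 48.6% were below 0. With the GC trend removed the list median was 0.02, and 3 of the 7, LIN54 at -0.06, RBL1 at -0.02 and RBBP4 at -0.01, were below 0. LIN9 had the smallest p, with 17.5 ± 1.14 CPM after H3F3A siRNA and 14.7 ± 0.415 CPM in scrambled libraries (edgeR adjusted p = 0.164), followed by LIN52 at a log2 fold change of 0.13 and RBBP4 at 0.07. Of 9 tested E2F and DP factors, E2F4, a repressor E2F, was lowest, with 87.3 ± 2.05 CPM after H3F3A siRNA and 104 ± 9.93 CPM in scrambled libraries (log2 fold change -0.26, edgeR adjusted p = 0.0744, and -0.15 with the GC trend removed). E2F3 and TFDP2 were at 0.11 and 0.08, and the list median was 0.05. CCNE2, a cyclin E gene and E2F target, had 10.2, 11.2 and 10.1 CPM after H3F3A siRNA, against 8.37 and 7.75 CPM in scrambled libraries. Its groups did not overlap, and it was not called (log2 fold change 0.38, edgeR adjusted p = 0.0675, and 0.26 with the GC trend removed). The phosphatase CDC25A was at -0.11 and the CDK-activating kinase subunit MNAT1 at 0.04. CDK7, the CDK-activating kinase itself, had 5 to 10 counts per library and did not pass the filter. Its symbol also has a numbered copy row, so these counts are not read as its level.

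Of 14 genes of SCF-SKP2 and cyclin D turnover none was called (median -0.04). The chaperone CDC37, which delivers CDK4, was at -0.17 (edgeR adjusted p = 0.271, and -0.03 with the GC trend removed), the SCF subunit SKP1 at 0.16 (edgeR adjusted p = 0.312) and the F-box gene FBXO4 at 0.42 on a low level of 1.61 and 1.21 CPM (edgeR adjusted p = 0.401). AMBRA1, a receptor for the degradation of D cyclin proteins, averaged 46.7 ± 0.602 CPM after H3F3A siRNA and 44.8 ± 3.96 CPM in scrambled libraries. Transcript counts give no measure of protein turnover.

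Of 20 RB-E2F target genes, many of which act in DNA replication, 1 fell and none rose (median -0.04). Over all genes 2.69% were called lower and 0.504% higher. CDT1, a replication licensing factor, had 71.7, 67.0 and 70.8 CPM after H3F3A siRNA, against 99.4 and 79.6 CPM in scrambled libraries. Most of that gap lay in scrambled replicate 1 (log2 fold change -0.36, edgeR adjusted p = 0.0246), and with the GC trend removed the log2 fold change was -0.12 and the call was lost (adjusted p = 0.365). Thymidine kinase TK1 was at -0.24 (edgeR adjusted p = 0.167, and -0.04 with the GC trend removed) and UHRF1 at -0.17 (edgeR adjusted p = 0.251). The MCM helicase genes MCM2 to MCM7 ran from -0.17 to 0.02, and PCNA, the sliding clamp, was highest of the list at 0.15. Of the 20 genes, 12 were below 0, against 48.6% of all genes tested. With the GC trend removed 16 were below 0 and none was called (median -0.02, against 0.01 over all genes). None of 8 proliferation markers was called. CDC20 was at -0.22 (edgeR adjusted p = 0.152) and PLK1 at -0.15 (edgeR adjusted p = 0.351). TOP2A was at 0.05 and MKI67 at -0.05 (95% interval -0.22 to 0.12). Of these 8 markers 6 were below 0 (median -0.02). All 8 were below 0 with the GC trend removed (median -0.06), again with no call.

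Of 14 upstream regulators of CCND1 transcription, 1 fell and none rose (median 0.01), against 2.69% lower and 0.504% higher over all genes. FOSL1, an AP-1 subunit, had 9.05, 8.17 and 9.48 CPM after H3F3A siRNA, against 14.7 and 12.2 CPM in scrambled libraries. All H3F3A siRNA libraries were lower (log2 fold change -0.60, edgeR adjusted p = 0.00550), and the call held with the GC trend removed (log2 fold change -0.45, adjusted p = 0.0231). The early response factor EGR1 was at 3.39 ± 0.149 CPM after H3F3A siRNA and 4.67 ± 0.227 CPM in scrambled libraries (log2 fold change -0.46, edgeR adjusted p = 0.0927), and MYC at 119 ± 4.48 and 138 ± 16.0 CPM (log2 fold change -0.22, edgeR adjusted p = 0.147). JUN, the AP-1 partner of FOSL1, had a log2 fold change of -0.20 and was not called. With the GC trend removed EGR1 was at -0.40, MYC at -0.17 and JUN at -0.11. JUNB was at -0.08, and at 0.15 with the trend removed. FOS was at -0.39 on a low level of 0.479 and 0.629 CPM. ETS2, CTNNB1, LEF1, TCF7L2, STAT3, CREB1, SP1 and YAP1 ran from 0.00 to 0.12.

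**Figure D5:**
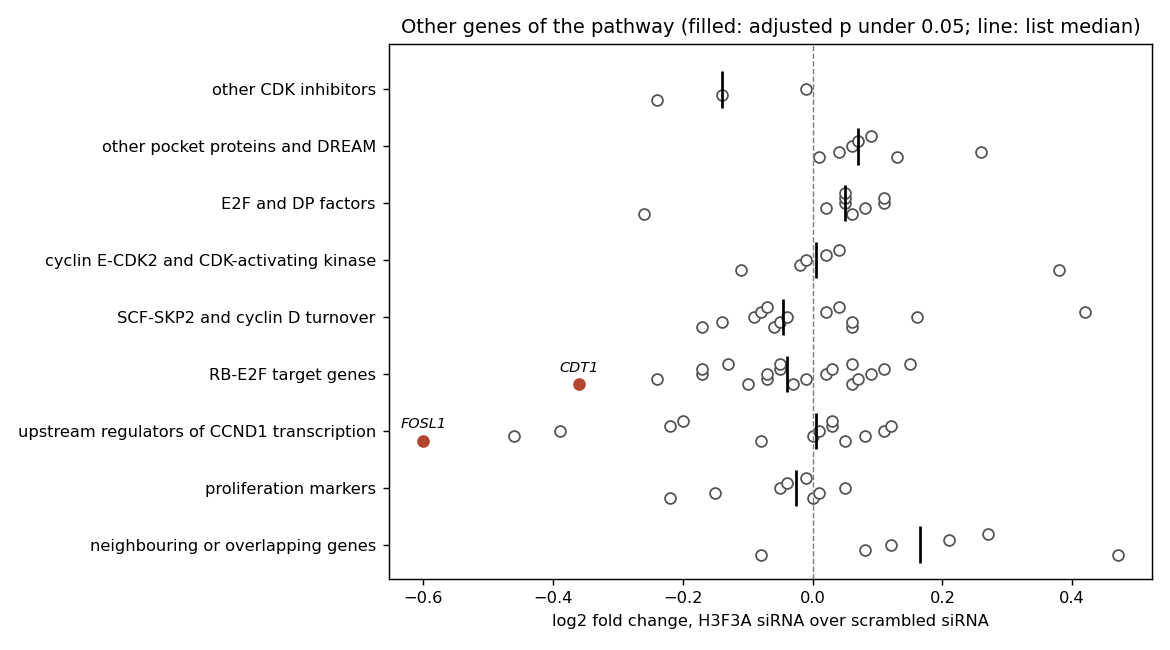
Log2 fold change, H3F3A siRNA over scrambled siRNA, of every tested gene in the 9 lists, with a line at each list's median and filled points for genes with an edgeR adjusted p under 0.05. CDT1 and FOSL1 are the filled points, both below 0.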

How the data were processed

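The authors deposited gene tables of raw counts that are laid out as STAR writes them, with an unstranded column and a pair of stranded columns. The submitters' processing notes name STAR 2.5, HTSeq 0.6.1, DESeq2 and hg19 without saying which tool made these files. Per the labels, libraries were poly-A selected and made with a NEBNext Ultra kit. Unstranded counts were used. Summary lines were left out: 4.84% to 5.48% of reads were unmapped and 4.45% to 4.56% ambiguous. edgeR 4.0.16 (R 4.3.3) tested the 15859 genes kept by filterByExpr (minimum count 10, total 15), with TMM scaling, a robust quasi-likelihood fit, no covariates and Benjamini-Hochberg adjustment over all genes. The test was checked on simulated data. SEs come from the fold change and F statistic. GC content and transcript length were taken from GENCODE 29 by symbol (90.7% of tested genes had a GC value), and each library's trend was removed by lowess (span 0.3) through offsets. The reference's build differs from the named one, so no coordinates are given. DESeq2 1.42.0 and limma 3.58.1 were alternatives. The labels do not say whether replicates were separate cultures, so p-values reflect only how these libraries vary, which may be technical. Members and lists were chosen with earlier results of these data known. Named were all members, called list genes, those of smallest p up to 3 per list, and the 3 genes most like CCND1, of which 1 is not reported here. Any other gene was named after its value was seen.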

Additional observations from a re-analysis of the deposited data

How the results depend on the processing

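CCND1 kept its direction in all 19 alternatives and its call in 18, with log2 fold changes from -0.56 to -0.47. Leaving out 1 library at a time gave -0.56 to -0.48, with no call when H3F3A siRNA replicate 1 was left out (-0.51). The ratio of CCND1 to CCND2 differed by -0.65 to -0.45 and that to CCND3 by -0.43 to -0.27 when 1 library was left out, and the D cyclin sum ratio ran from 0.844 to 0.938. With 1 library left out, 0 to 4 members, 9 to 1737 lower genes and 6 to 744 higher genes were called. Called were 203 lower genes with the GC trend removed, 255 lower and 138 higher with library size only, 153 higher without a filter, 52 higher by limma voom, and 201 lower with both strands summed and the GC trend removed. With the GC trend removed, 60 lower and 18 higher were called without scrambled replicate 1, and 257 lower and 140 higher without H3F3A siRNA replicate 1. Without a filter and by DESeq2, 2 members were called, CCND1 and CDKN2A.

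Replicate numbers 1 and 3 occur in both groups, but the labels do not say that they pair cultures. The correlation of deviations of same-numbered libraries was 0.0870 with 2 pairs. With the replicate block, which drops H3F3A siRNA replicate 2, CCND1 was at -0.48 and 1 member was called. With the block and the GC trend removed, 800 lower and 499 higher genes and 2 members were called, CCND1 at -0.48 and CDK6 at -0.15.

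Uncalled members near 0 changed sign, with no call. With 1 library left out CCND2 ran from -0.07 to 0.12, CDK6 from -0.15 to 0.11 and SKP2 from -0.04 to 0.00. With library size only CDK6 was at 0.02, CDKN1B at 0.00 (just above 0) and SKP2 at 0.03. CDK6 was at 0.11 without scrambled replicate 3 and 0.02 without H3F3A siRNA replicate 1, where CCND2 was at -0.07. SKP2 was at 0.00 without H3F3A siRNA replicate 2 and with the block. CDKN2C was at 0.04 with the GC trend removed, alone, with the block or with both strands summed, at 0.02 without scrambled replicate 1 as well and at 0.05 without H3F3A siRNA replicate 1 as well. CDK4 was at 0.03 with the block and the GC trend removed and 0.00 with both strands summed and the GC trend removed, where CCND2 was at -0.01. RB1 was at -0.01 with the GC trend removed and without scrambled replicate 1, and CCND2 at -0.11 with it removed and without H3F3A siRNA replicate 1. The cause of these changes was not tested. The alternatives with both strands summed and all alternatives for the D cyclin sum were chosen after seeing the data. So was the alternative without H3F3A siRNA replicate 1 and with the GC trend removed. With 5 libraries an exact two-sided permutation test cannot go below 0.200 with the smaller tail doubled or 0.100 on the absolute difference, a form added after seeing the data.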
